A study of Arabidopsis thaliana with 4 samples.

Results

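The mitochondrial genome of Arabidopsis thaliana was represented by 94 of the 30361 gene models on the array, taken as every model whose locus identifier begins with ATM, which are the models that the deposited annotation places on chromosome M (genome release 6, first start 273, last end 366700). By their deposited descriptions, 20 encode subunits of the respiratory chain and the ATP synthase, 3 take part in cytochrome c maturation, 5 encode ribosomal proteins, 1 (ATMG00570, known as mttB) encodes a protein of unknown function, and 65 are open reading frames described as hypothetical proteins. Intensity was measured on 4 single-colour Cy3 arrays of whole seedlings of the accession Ler, grown on MS medium plates and harvested on day 7. Wild type was Ler with normal flowering time, and TEKi were T3 Ler plants carrying an artificial microRNA against TEK, labelled as late flowering; each group had 2 arrays from separate cultures. The promoter that drives the microRNA and the number of independent lines are, in the sources used here, not given.

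Plant mitochondria keep a small genome of their own. It encodes core subunits of respiratory complexes I, III, IV and V, part of the machinery that attaches haem to cytochrome c, several ribosomal proteins and ribosomal and transfer RNAs, while the nucleus encodes all other mitochondrial proteins. The genome is transcribed by phage-type RNA polymerases from many promoters, its transcripts are spliced, in part between separate precursors, and edited from C to U, and recombination between repeats creates rearranged forms and open reading frames that are not conserved between accessions. A large copy of mitochondrial DNA also lies in the nuclear genome near the centromere of chromosome 2.

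The deposited array files and the series value table disagree on 2 arrays. The value table swaps them: it gives the name TEKi 1 to what was filed as wild type 2, and the name wild type 2 to what was filed as TEKi 1, while wild type 1 and TEKi 2 are the same arrays in both sources. The main comparisons are therefore given with both sets of labels, which use the same 4 arrays, and arrays are named as filed unless stated. Some counts are given with the filed labels only. TEK (AT2G42940), the target, had intensities of 13406 and 14118 in wild type versus 9864 and 13770 in TEKi as filed (log2 difference -0.24, SE 0.249, limma adjusted p = 1). Its difference with the value-table labels was 0.28 (SE 0.226, adjusted p = 0.694), so TEK settled neither assignment. The median intensity over all genes lay between 5639 and 5814. All 94 mitochondrial models were tested; none was at 0 on any array, and 1, ATMG00030, was at the highest deposited value, with 64047 on wild type 1, 64047 on wild type 2, 61491 on TEKi 1 and 64047 on TEKi 2. Each model rests on 2 probe pairs (78 models) or 3 (16 models), and intensities of different genes are not ranked because probes differ in brightness.

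With the array-file labels, genes for respiratory chain subunits and ribosomal proteins had higher intensities on the TEKi arrays, while the open reading frames were spread to both sides. Both TEKi arrays lay above both wild-type arrays for 15 of 20 respiratory chain genes and for 5 of 5 ribosomal protein genes, against 15.3% of all genes. The difference was above 0 for 19 of 20 and 5 of 5, against 50.8% of all genes. The median log2 difference (TEKi minus wild type) was 0.56 for the respiratory chain and 0.85 for ribosomal proteins, against 0.006 for all genes tested. Of the 65 open reading frames 13 lay entirely above and 17 entirely below wild type (all genes 14.7% below), with a median of -0.12. Leaving out wild type 1 turned it to 0.026, and leaving out TEKi 2 gave -0.024. Limma called none of the 94, where 0% of all genes were called at a threshold of 0.05 and 1398 of all genes had an unadjusted p under 0.05; 17 of the 94 had an unadjusted p under 0.05 with higher values in TEKi, against 2.37% of all genes, and 2 with lower values, against 2.24%. In whole seedlings, more organelles or cells of a type and more RNA in each cannot be told apart. With any 1 array left out, between 4 and 7 of the 94 passed with higher values. No single difference with these labels passed the test after adjustment over all genes.

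**Figure D1:**
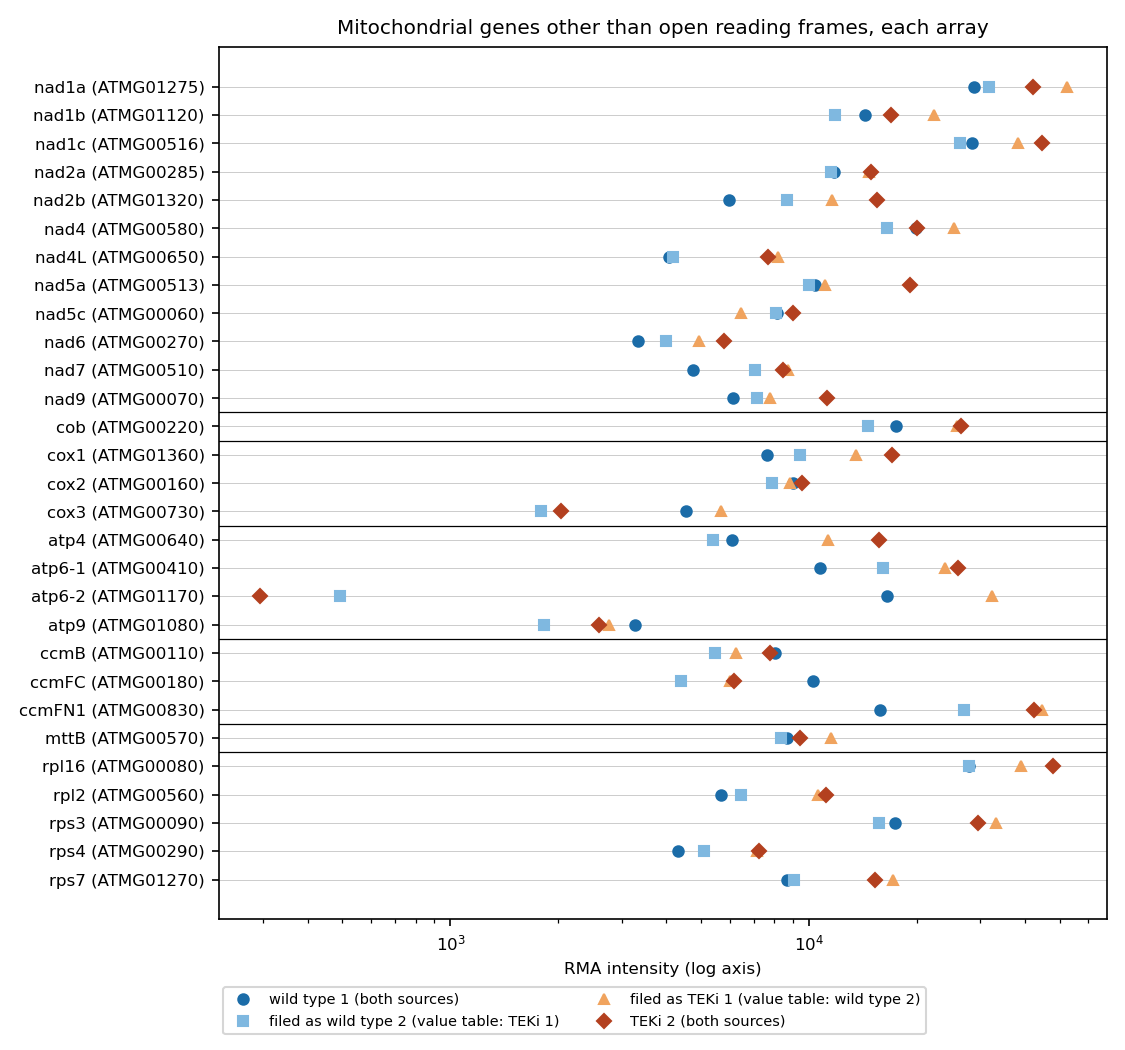
RMA intensity (horizontal, log axis) of the 29 mitochondrial genes other than the open reading frames on each of the 4 arrays, grouped from top to bottom into complexes I, III, IV and V, cytochrome c maturation, mttB and ribosomal proteins. For most genes the triangle and the diamond (arrays filed as TEKi) lie to the right of the circle and the square (filed as wild type); atp6-2 and cox3 instead set the circle and the triangle apart from the square and the diamond.

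Ribosomal protein genes were all higher on the arrays filed as TEKi. The S3 gene rps3 (ATMG00090, chromosome M, 25482 to 28733) had intensities of 17324 and 15679 in wild type versus 33108 and 29610 in TEKi (log2 difference 0.93, SE 0.182, limma adjusted p = 1). Its neighbour rpl16 (ATMG00080), which overlaps it by 134 bases and encodes protein L16 of the large subunit, had 27952 and 27813 against 38967 and 47744. In both genes the groups were apart, and in rpl16 the TEKi arrays also differed from each other more than the wild-type arrays did. The S7 gene rps7 (ATMG01270) had 8643 and 9056 in wild type versus 17173 and 15286 in TEKi (log2 difference 0.87). The L2 gene rpl2 (ATMG00560) had 5670 and 6444 against 10584 and 11170 (log2 difference 0.85), and the S4 gene rps4 (ATMG00290) had 4306 and 5100 against 7139 and 7227 (log2 difference 0.62). All 5 were therefore between 0.62 and 0.93 higher on the log2 scale. All 5 had an unadjusted limma p under 0.05, against 2.37% of all genes with higher values in TEKi.

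Complex I, the NADH dehydrogenase that passes electrons to ubiquinone, has 12 models here. Of these, 11 lay entirely above wild type in TEKi, against 15.3% of all genes. The subunit 4L gene nad4L (ATMG00650, 188929 to 189231) had 4063 and 4184 in wild type versus 8192 and 7698 in TEKi (log2 difference 0.95, SE 0.166). The subunit 6 gene nad6 (ATMG00270) had 3336 and 3986 against 4937 and 5796, and the subunit 7 gene nad7 (ATMG00510) had 4757 and 7082 against 8725 and 8443. The subunit 9 gene nad9 (ATMG00070) had 6142 and 7167 against 7797 and 11191, with the lower TEKi array close to the higher wild-type array. The subunit 4 gene nad4 (ATMG00580) barely kept the groups apart, at 19784 and 16491 against 25319 and 19964.

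Genes nad1, nad2 and nad5 are assembled by trans-splicing from separate precursors, of which all have a model here except the nad5 piece ATMG00665. The 3 pieces of nad1 were alike in direction: ATMG01275 had 28882 and 31691 in wild type versus 52176 and 42026 in TEKi, ATMG01120 had 14306 and 11781 against 22343 and 16853, and ATMG00516 had 28434 and 26395 against 38272 and 44483. The nad2 pieces differed in size. ATMG00285 had 11709 and 11530 against 14651 and 14897, and ATMG01320 had 5993 and 8663 against 11598 and 15436 (log2 difference 0.89). The measured nad5 pieces did not share a pattern. ATMG00513 had 10372 and 10015 against 11053 and 19115, where TEKi 2 stood alone, and ATMG00060 had 8143 and 8088 against 6471 and 9009, the only complex I model whose groups overlapped.

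In complexes III and IV the picture was mixed. Apocytochrome b, the core of complex III, had a well separated model: cob (ATMG00220, 60235 to 61416) had 17455 and 14579 in wild type versus 25880 and 26547 in TEKi (log2 difference 0.72, SE 0.191). Of the 3 subunits of cytochrome c oxidase, cox1 (ATMG01360) had 7640 and 9405 against 13478 and 16967 (log2 difference 0.84). The subunit 2 gene cox2 (ATMG00160) overlapped, at 9007 and 7877 against 8847 and 9542. The subunit 3 gene cox3 (ATMG00730) had 4540 and 1789 against 5678 and 2032, so the arrays of each filed group differed by more than the groups did.

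Complex V, the ATP synthase, held both the largest filed difference among named genes and the widest spread within groups. The b subunit gene atp4 (ATMG00640, 188084 to 188662) had 6094 and 5406 in wild type versus 11260 and 15621 in TEKi (log2 difference 1.21, SE 0.254, limma adjusted p = 1). One of the loci for subunit 6 of the membrane-embedded part, atp6-1 (ATMG00410, 111587 to 112907), had 10714 and 16081 against 23831 and 26049 (log2 difference 0.92). The other, atp6-2 (ATMG01170, 296820 to 298204), had 16524 and 493.4 against 32285 and 294. The subunit 9 gene atp9 (ATMG01080) overlapped, at 3266 and 1818 against 2762 and 2590. Of the cytochrome c maturation genes, ccmFN1 (ATMG00830) had 15779 and 27059 in wild type versus 44422 and 42326 in TEKi (log2 difference 1.07, SE 0.345, and 0.68 without wild type 1), whereas ccmB (ATMG00110) had 8039 and 5470 against 6234 and 7796. With 1 array left out, the median of these 3 genes ran from -0.21 without wild type 2 to 0.47 without wild type 1. The groups overlapped for ccmB and also for ccmFC (ATMG00180), which had 10273 and 4385 against 6010 and 6165. The mttB model (ATMG00570), for the protein of unknown function, had 8649 and 8369 against 11520 and 9412, a small separation.

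**Figure D2:**
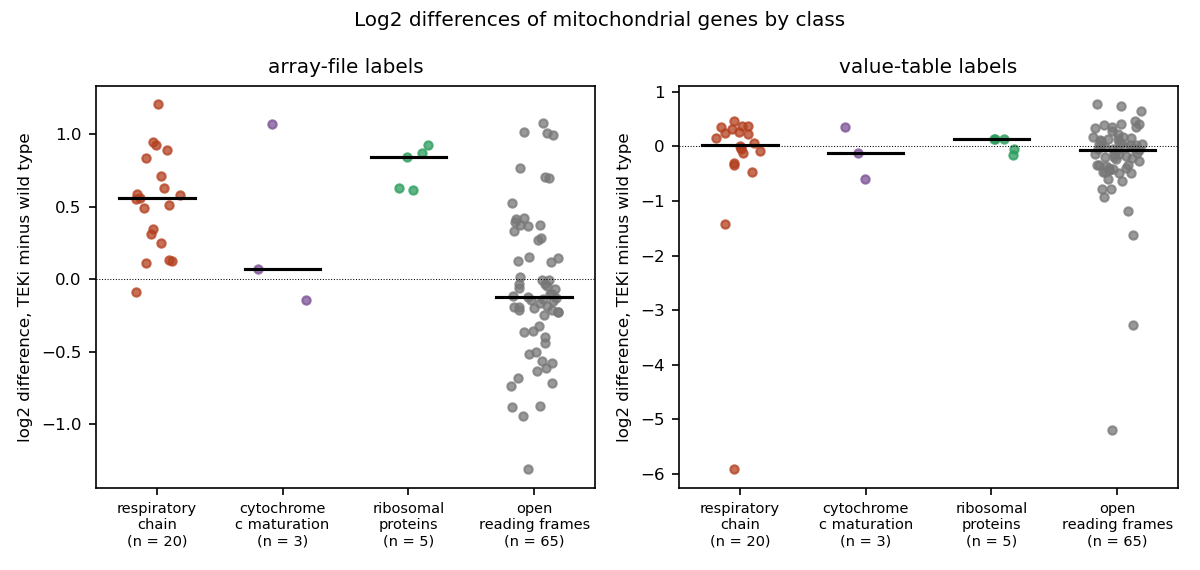
Log2 difference of TEKi minus wild type (vertical) for each mitochondrial gene, by class, with the array-file labels at left and the value-table labels at right; dots are genes, the mttB model is not drawn, horizontal bars are class medians and the vertical scales differ. At left the medians are 0.56 for the respiratory chain, 0.07 for cytochrome c maturation, 0.85 for ribosomal proteins and -0.12 for open reading frames; at right they lie between -0.12 and 0.13, and 3 genes lie below -3.

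The open reading frames on the high side included several that lie beside named genes. ATMG00400 (110930 to 111403), 183 bases from atp6-1, had 13770 and 19355 in wild type versus 33601 and 35349 in TEKi as filed (log2 difference 1.08, SE 0.252). ATMG00490 had 5820 and 6393 against 12735 and 11798 (log2 difference 1.01), and ATMG00500, which overlaps it by 173 bases and lies 677 bases from nad7, had 3978 and 4782 against 8172 and 9302. These 3 had separated groups, like their named neighbours. ATMG01130, 113 bases from the nad1 piece ATMG01120, had 15723 and 13869 against 30938 and 20478, and ATMG01330, inside the nad2 piece ATMG01320, had 5137 and 5709 against 8571 and 9133. A more distant and dim one was ATMG01210, at 377.6 and 180.4 against 462.5 and 602.2. Of the 9 open reading frames within 1000 bases of a named model, 6 lay entirely above wild type and 2 entirely below (median 0.71). Of the other 56, 7 lay above and 15 below (median -0.14). Among all genes 15.3% lay entirely above and 14.7% entirely below. That distance was chosen after the values were seen, and no test was made of it.

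On the low side of the filed labels, the largest difference was that of ATMG00040 (log2 difference -1.31, SE 0.946), with 1301 and 588.4 in wild type versus 730.5 and 170.3 in TEKi, where the groups overlapped. The models that follow had separated groups. ATMG01350 had 3830 and 3393 in wild type versus 2027 and 1886 in TEKi (log2 difference -0.88, SE 0.180). ATMG00750 had 1240 and 901.8 against 515.2 and 645.1 (log2 difference -0.88), and ATMG00710 had 6142 and 2724 against 1922 and 2362, where wild type 1 stood alone. ATMG00010 had 5695 and 4432 against 2698 and 3372, and ATMG00770 had 3534 and 2835 against 2360 and 1660. All 6 open reading frames between 207553 and 222989 lay entirely below wild type, against 14.7% of all genes, with log2 differences from -0.94 to -0.21. This stretch was singled out after its values were seen, and cox3, which lies in it, was not entirely below.

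Level moved with this pattern. The 44 mitochondrial models at or above the median level of all genes included 16 of the respiratory chain, 5 of ribosomal proteins and 19 open reading frames, and 31 of the 44 lay entirely above wild type and 0 below, against 15.6% above among all genes of that level. Among those 19 open reading frames 10 lay above and 0 below, with a median of 0.38. The part of level in the class pattern was not tested. Genes of the chloroplast genome, the other organelle genome of the seedling, lay entirely above wild type for 35 of 67 as filed. The share of all genes was 15.3%, and the chloroplast median log2 difference was 0.18. With the value-table labels 10 of the 67 lay entirely above, against 27.7% of all genes, with a median of 0.04. Of the 67, 23 reached the highest deposited value, where differences are compressed.

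**Figure D3:**
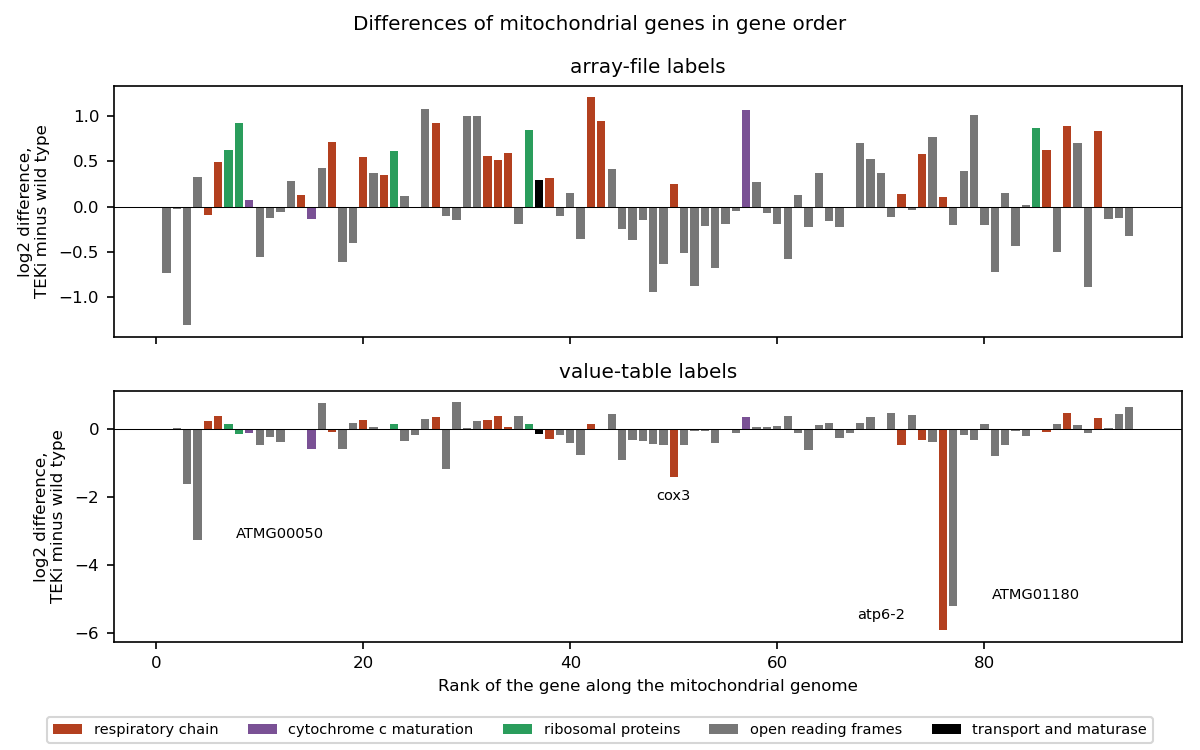
Log2 difference of TEKi minus wild type (vertical) for the 94 models in their order along the mitochondrial genome (horizontal, rank), coloured by class, with the array-file labels above and the value-table labels below on different vertical scales. The neighbours atp6-2 and ATMG01180 stand together at -5.92 and -5.20 in the lower panel, with ATMG00050 at -3.27 far from them.

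With the value-table labels the class pattern was not seen and limma called a few single loci instead. This comparison sets the arrays filed with number 2 against those filed with number 1. The filed comparison likewise sets number 2 against number 1 of the value table. A group difference under 1 set of labels therefore cannot be told apart from a difference between replicate numbers under the other. Of the respiratory chain genes 0 of 20, and of the ribosomal protein genes 0 of 5, had both arrays labelled TEKi above both labelled wild type, against 27.7% of all genes. Their medians were 0.03 and 0.13, against 0.09 for all genes, and the difference was above 0 for 11 of 20 and 3 of 5, against 60.3% of all genes. With 1 array left out these medians ran from -0.24 to 0.36 and from -0.32 to 0.45. Limma called 3 of the 94, atp6-2, ATMG01180 and ATMG00050, all lower in the arrays labelled TEKi, where 2.22% of all genes were called, 1.95% lower and 0.273% higher, so the share is close to that of the array as a whole. With any 1 of the 4 arrays left out, with plain per-gene variance or with the replicate block, 0 of the 94 were called. An unadjusted p under 0.05 was found with higher values for 0 of the 94, against 7.5% of all genes, and with lower values for 7, against 6.94%. Groups were entirely separated downward for 21 of the 94, against 17.1% of all genes, and for the 44 models at or above the median level 2 lay entirely above, against 27.9%. Likewise 5 of the 94 were at least 2-fold lower on both arrays labelled TEKi than on both labelled wild type, against 4.68% of all genes.

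The locus atp6-2 had the widest range of any mitochondrial gene. Its intensity was 16524 and 32285 under the table's wild-type label versus 493.4 and 294 under its TEKi label, 60.6-fold lower (log2 difference -5.92, SE 0.485, n = 2 per group, limma adjusted p = 0.0335). The next model along the genome, ATMG01180 (300966 to 301301), lies 2761 bases away and encodes a hypothetical protein. It had 4127 and 3314 under the wild-type label versus 103.8 and 96.9 under the TEKi label, 36.9-fold lower (log2 difference -5.20, SE 0.197, adjusted p = 0.0133). With the array-file labels each filed group held 1 high and 1 low array of both genes, and the log2 differences were 0.11 (SE 3.30) and -0.21 (SE 2.87). The nearest mitochondrial models on either side did not share this split. ATMG01130, 7302 bases before atp6-2, had 15723 and 30938 against 13869 and 20478, and ATMG01200, 2534 bases after ATMG01180, had 6356 and 7675 against 5128 and 7341. Loci ATMG01140 and ATMG01150, numbered between ATMG01130 and atp6-2, were measured only through chromosome 2 models that also name other loci. Those models were separated in the same direction by less. AT2G07702 had 12356 and 9155 against 5388 and 5414 (log2 difference -0.98), and AT2G07701 had 16576 and 12177 against 8474 and 7225 (log2 difference -0.86).

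The other locus for the same ATP synthase subunit did not share the split. On the value-table labels atp6-1 had 10714 and 23831 in wild type versus 16081 and 26049 in TEKi, with overlapping groups. The atp6 pseudogene model of chromosome 2 (AT2G07699, which stands for 2 loci) had 34317 and 62268 against 43748 and 56852, also overlapping. No mitochondrial model names both atp6 loci together, so their summed transcript level was not analysed.

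**Figure D4:**
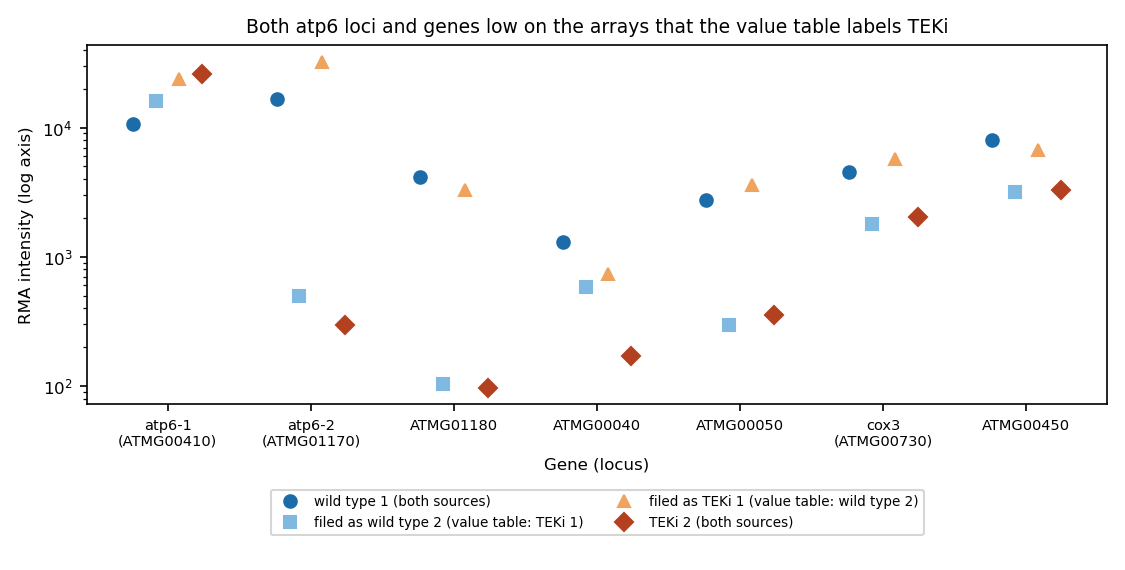
RMA intensity (vertical, log axis) on each of the 4 arrays for both atp6 loci and for 5 other mitochondrial genes that were lower on both arrays labelled TEKi in the value table. The square and the diamond mark those arrays; for atp6-2 and ATMG01180 they lie far below the circle and the triangle, and for atp6-1 they do not.

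A second place with this split lay near the start of the map. ATMG00050 (16856 to 17251) had 2745 and 3607 under the wild-type label versus 296.5 and 357 under the TEKi label, 9.67-fold lower (log2 difference -3.27, SE 0.235, limma adjusted p = 0.0271). ATMG00040, which spans all of it, had 1301 and 730.5 versus 588.4 and 170.3, a log2 difference of -1.62 (SE 0.760, limma adjusted p = 0.478) and a smaller and less even separation. The chromosome 2 model AT2G07777, which shares its probes with mitochondrial locus ATMG01090, had 2543 and 3799 against 310.4 and 551.8 (log2 difference -2.91, adjusted p = 0.0895).

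Smaller differences in the same arrangement were seen for cox3, atp9 and further open reading frames. With the value-table labels 18 of the 65 open reading frames, the called ones included, lay entirely below wild type, against 17.1% of all genes. The cytochrome c oxidase subunit 3 gene had 4540 and 5678 under the wild-type label versus 1789 and 2032 under the TEKi label (log2 difference -1.41, SE 0.207, limma adjusted p = 0.0952), which missed the threshold. ATMG00450 had 8027 and 6688 against 3156 and 3285 (log2 difference -1.19, adjusted p = 0.104), ATMG00670 had 1238 and 1293 against 803.2 and 546.6, and atp9 had 3266 and 2762 against 1818 and 2590 (log2 difference -0.47). In the other direction 8 open reading frames and no named gene lay entirely above wild type, 8 of 94 against 27.7% of all genes. The largest was ATMG00470, at 328.7 and 434.5 against 822 and 508.5, and ATMG00200 had 3445 and 4795 against 5984 and 7741. The next were ATMG01410, at 959.6 and 511.2 against 999.3 and 1203, where 1 array labelled wild type was low, ATMG01060, at 775.1 and 590.5 against 884.6 and 994.6, and ATMG01400, at 2522 and 1904 against 2772 and 3099. Adjusted p of these 5 ran from 0.377 to 0.581.

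The labels of 1 array pair, wild type 1 and TEKi 2, do not depend on the source. For each gene the log2 difference of this pair is the sum of the differences under both sets of labels. The pair therefore holds both patterns by construction and is no separate look at either. TEKi 2 was higher for 17 of 20 respiratory chain genes, including 12 of 12 models of complex I, and for 5 of 5 ribosomal protein genes, with median log2 differences of 0.63 and 0.77. For open reading frames it was higher in 22 and lower in 42 of 65, with a median of -0.19, and for all genes it was higher in 56.7% with a median of 0.073. In the same pair atp6-2 went from 16524 to 294 and ATMG01180 from 4127 to 96.9. With 1 array a group there is no replicate check of these values. Log2 intensities were correlated across the 94 genes, which are not independent. Pearson's r was 0.932 between wild type 1 and the array filed as TEKi 1. The array filed as wild type 2 and TEKi 2 gave 0.962. Within filed wild type r was 0.821, and within filed TEKi 0.844. Over all 30352 genes tested the same pairs gave 0.972 and 0.974, against 0.934 and 0.930 within the filed groups. This grouping of arrays was therefore not particular to mitochondrial genes.

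Part of the mitochondrial gene set was measured only through probes shared with the nuclear copy on chromosome 2. Among chromosome 2 models, 21 name at least 1 mitochondrial locus beside their own. Of these, 7 stand for loci that carry a gene symbol here: atp1, atp8, ccmC, ccmFN2, matR, rpl5 and rps12. Signal of the mitochondrial gene and of its nuclear copy cannot be told apart in these. For rpl5, a ribosomal protein gene (AT2G07725 with ATMG00210), intensities were 10953 and 12233 in wild type versus 27184 and 23478 in TEKi as filed (log2 difference 1.13). For atp1, the alpha subunit of the ATP synthase (AT2G07698 with ATMG01190), they were 20025 and 17093 against 30833 and 33814 (log2 difference 0.80), and for atp8 (AT2G07707) 5874 and 6688 against 8610 and 9447. These 3 and rps12 had separated groups, with TEKi higher, while matR, ccmC and ccmFN2 overlapped. That is 57.1% of the 7 separated upward, against 15.3% of all genes. With the value-table labels 0 of the 7 were separated upward and 2 downward, against 27.7% and 17.1% of all genes. The other 14 shared models had 2 above and 7 below wild type on the filed labels, against 15.3% and 14.7% of all genes. Of the 2 above, AT2G07695 is described as a cytochrome-c oxidase. With the value-table labels 1 of the 14 lay above and 4 below, against 27.7% and 17.1% of all genes.

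Other models of that chromosome 2 stretch carry no mitochondrial locus name. Between the first and the last shared model (chromosome 2, 3239690 to 3496107) lay 64 further models, of which 17 were entirely above and 17 entirely below wild type on the filed labels (26.6% each way, against 15.3% and 14.7% of all genes). With the value-table labels 10 of the 64 lay above and 12 below, against 27.7% and 17.1% of all genes. The 64 models were sorted by words of their deposited descriptions, after their values were seen and with no test. These kinds were counted with the filed labels only. Of 18 described as respiratory chain, ATP synthase or ribosomal products, pseudogenes included, 11 lay entirely above and 0 below (median log2 difference 0.40), among them AT2G07734, a ribosomal constituent, at 0.90 and AT2G07751, an NADH dehydrogenase, at 0.89. Of 15 described as retroelements, 0 lay above and 8 below (median -0.25), and of 23 unknown or hypothetical proteins 5 lay above and 7 below. How far probes of these models also bind mitochondrial transcripts was not tested. None of the 85 models of the stretch was called under either set of labels. Of all genes 0% were called as filed and 2.22% with the value-table labels. Of the 101 loci numbered AT2G07667 to AT2G07835, which reach beyond the stretch, 3 were called lower with value-table labels, against 1.95% of all genes. Nuclear genes that serve the same organelle were examined as 3 lists, 1 of which also held the plastid polymerase gene RPOTp. Limma called 0 of the 25 list members under either set of labels, against 0% and 2.22% of all genes. At an unadjusted p under 0.05, 0 passed with the filed labels, against 2.37% of all genes higher and 2.24% lower. With the value-table labels 5 passed, 4 higher and 1 lower, against 7.5% and 6.94% of all genes.

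Among nuclear genes of alternative respiration, which bypass proton-pumping complexes, AOX1B (alternative oxidase) was dim, at 83.1 and 157.6 in wild type versus 47.8 and 159.8 in TEKi as filed, and followed the value-table split. AOX1C had 1981 and 1234 against 2018 and 359.4, and AOX2 had 1222 and 1139 against 616.7 and 896.8. The external NAD(P)H dehydrogenase gene NDB2 had 3412 and 6641 against 4690 and 7929. Among genes for upkeep and transcription of the mitochondrial genome, the phage-type RNA polymerase gene RPOTm had 11096 and 8277 against 12163 and 8145, and MSH1, which limits recombination between mitochondrial repeats, had 9907 and 15936 against 10129 and 14466. RPOTp, kept in this list although it encodes a plastid polymerase, had 20030 and 29154 against 19284 and 21416. The recombinase gene RECA2 had 4736 and 11437 against 5376 and 6335. Of the cytochrome c genes, CYTC-2 ranged most, at 1874 and 14247 against 3951 and 9124, and CYTC-1 was bright and even, at 53175 and 58870 against 58466 and 63888. On the value-table labels the log2 difference was 2.07 for CYTC-2, 0.60 for MSH1 and -0.50 for RPOTm, with adjusted p of 0.219, 0.256 and 0.322.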

How the data were processed

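Per the submitters' processing notes the authors deposited RMA intensity values on a linear scale, 1 per gene model and array; the sources used here give no RMA version or settings. Labels came from the array files (main) and from the series value table. Intensities were converted to log2 after leaving out 9 genes at 0 on an array, which left 30352. Groups were compared over all genes with limma 3.58.1 in R 4.3.3 (functions lmFit and eBayes, two-sided), with Benjamini-Hochberg adjustment and a threshold of 0.05; SE is the moderated standard error and n = 2 arrays per group throughout. With 2 arrays a group, the number of arrays limits the precision. The procedure was also run on simulated data with independent noise on each array. That setting leaves out the likeness between arrays described above, so it does not test for its effect. Classes follow locus numbers checked against the deposited descriptions; no mitochondrial locus matched the RefSeq locus tags (TAIR10.1), and letters of trans-spliced pieces are customary. The members and lists were chosen with earlier results of these data known. Named were all members with a named product, the open reading frames called, the 5 largest and 5 smallest separated differences under each set of labels, the 5 widest ranges, and up to 4 nuclear genes per list. A model's groups are called separated when both arrays of one lie above both of the other. Alternatives were quantile normalization, median centring, filters on dim and on saturated genes, adding 50 before the log, a mean-variance trend or plain variance, the replicate block and leaving out arrays. Listed genes without a model (nad3, the nad5 piece ATMG00665 and the ribosomal RNAs) and the deposited error column were not used. In the labels, same-numbered arrays shared only a number. In their values as filed they were the more alike: over all genes tested r was 0.972 and 0.974, against 0.934 and 0.930 within the filed groups.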

Additional observations from a re-analysis of the deposited data

How the results depend on the processing

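With value-table in place of array-file labels, 674 of all genes and 3 mitochondrial genes were called where 0 were, and the medians became 0.028 for the respiratory chain and 0.13 for ribosomal proteins. The log2 difference then turned to -0.15 for ATMG00090 (rps3), -0.050 for ATMG01270 (rps7), -0.024 for ATMG00650 (nad4L), -0.11 for ATMG00220 (cob), -0.026 for AT2G07725, -0.048 for AT2G07698, -5.92 for ATMG01170 and -3.27 for ATMG00050, and ATMG01180 stood at -5.20. With the filed labels, leaving out genes below the median level moved the median of all mitochondrial genes to 0.54 and of open reading frames to 0.38. Leaving out 1 array kept the ribosomal median between 0.75 and 0.85, but spread ATMG01170 from -3.28 to 3.50 (-2.42 for another array left out) and ATMG01180 from -2.86 to 2.45 (2.34 for another), and ATMG00050 from -1.34 to 2.0, with -1.27 for another array left out, since each filed group holds 1 high and 1 low array of these.

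With the value-table labels, genes called numbered 191 without genes below the median level, 1150 with a mean-variance trend, and 0 with plain per-gene variance, with the replicate block or without any 1 array. Mitochondrial genes called were 0 in the same settings except the trend; the filter on level removes all 3 by construction. ATMG01170 stayed between -6.41 and -5.44, ATMG01180 between -5.36 and -5.05 and ATMG00050 between -3.47 and -3.08 with 1 array left out. The median of all mitochondrial genes was 0.037 without dim genes and ran from -0.21 to 0.019 with 1 array left out. From the undisputed arrays alone, a setting chosen after seeing the data, the medians were 0.63 for the respiratory chain and 0.77 for ribosomal proteins. The gene differences behind these medians are sums of those under both sets of labels, so they cannot decide between them. Except for the label source, the causes were not tested. For each gene, the deviation of array 1 from its group mean was taken in wild type and in TEKi. Over 30352 genes these deviations correlated at 0.65 as filed and 0.11 by the value table, with 2 arrays a group. No mitochondrial model names several loci, so that alternative was not run.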
